A study of Mus musculus with 6 samples.

Results

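The kinetochore is the protein assembly on the centromere that ties a chromosome to the spindle, and the spindle checkpoint is the signal it sends while a chromosome is not yet attached. The messenger RNAs of 42 mouse genes for these proteins were followed in whole liver of wild type and Atp7b-/- mice. The genes were chosen by symbol, with earlier results of these data known. Each of the 42 matched 1 of the 41388 gene identifiers in the deposited count table. They comprise 8 spindle checkpoint genes, 15 genes of centromere chromatin and the inner kinetochore, 10 of the outer kinetochore, 2 of the fibrous corona, 4 of microtubule attachment, 2 of centromere cohesion and 1 centriole gene, Cenpj, which carries a centromere name. Atp7b encodes the ATPase that moves surplus copper into bile, and its loss causes Wilson disease in people. The wild type group holds 3 libraries and the Atp7b-/- group 3, all from mice on a mixed C57BL x 129S6/SvEv background, 6 weeks old and fed a chow with 16 ppm copper. Of these, wild type replicate 1 together with Atp7b-/- replicate 3 was read from both ends of each fragment (paired-end), and the other 4 libraries from 1 end (single-end). The labels do not give the targeted part of Atp7b or tie each library to its own animal. The p-values set the genotype difference only against the spread between these libraries, part of which may therefore be technical.

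In a dividing cell the inner kinetochore is built on nucleosomes that carry the histone variant CENP-A, and it recruits the outer kinetochore, whose NDC80 complex grips the microtubules. Checkpoint proteins gather on unattached kinetochores and hold back the anaphase-promoting complex until every chromosome is attached. Most hepatocytes of a grown mouse are out of the cell cycle, and the genes for many of these proteins are transcribed mainly in the late cell cycle. Many promoters of that kind carry a cell cycle homology region (CHR), a short element bound by the DREAM and related MuvB complexes.

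Promoter sequences of the genes are shown first, because the genes that rose in Atp7b-/- livers often held a CHR close to their start. RefSeq windows of 300 bases on build GRCm38.p6, from 250 bases before to 50 after the transcription start, were in the reference table for 38 of the 42 genes, and for 17 of the 20 that rose. The windows were searched on both strands for the CHR, spelled TTTGAA or TTCGAA, for the CCAAT box, spelled CCAAT, and for an E2F site, spelled TTTGGCGC or TTTCCCGC. None of these words lies inside another. The next lines give the whole window of the 2 genes that rose with the smallest p-values and a CHR, Bub1b (chr2:118597961-118598260, plus strand) and Ttk (chr9:83834439-83834738, plus strand). The third window is that of Mad2l1 (chr6:66534971-66535270, plus strand), the gene that rose with the smallest p-value and had no CHR. Sequences read 5′ to 3′ on the strand of the gene, and capitals mark a CHR or a CCAAT box on either strand.
Bub1b: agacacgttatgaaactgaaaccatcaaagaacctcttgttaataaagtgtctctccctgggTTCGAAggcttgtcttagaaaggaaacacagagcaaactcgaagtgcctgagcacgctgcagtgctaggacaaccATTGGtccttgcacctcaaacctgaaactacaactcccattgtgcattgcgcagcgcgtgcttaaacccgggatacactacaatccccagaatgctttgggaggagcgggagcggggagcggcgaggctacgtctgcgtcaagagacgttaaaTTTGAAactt
Ttk: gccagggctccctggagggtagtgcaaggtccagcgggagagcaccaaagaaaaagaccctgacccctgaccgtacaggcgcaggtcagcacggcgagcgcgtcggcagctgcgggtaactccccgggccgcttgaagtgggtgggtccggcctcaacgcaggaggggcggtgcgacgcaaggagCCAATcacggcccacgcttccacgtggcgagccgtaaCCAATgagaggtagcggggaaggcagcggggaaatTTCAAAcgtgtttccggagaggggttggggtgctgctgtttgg
Mad2l1: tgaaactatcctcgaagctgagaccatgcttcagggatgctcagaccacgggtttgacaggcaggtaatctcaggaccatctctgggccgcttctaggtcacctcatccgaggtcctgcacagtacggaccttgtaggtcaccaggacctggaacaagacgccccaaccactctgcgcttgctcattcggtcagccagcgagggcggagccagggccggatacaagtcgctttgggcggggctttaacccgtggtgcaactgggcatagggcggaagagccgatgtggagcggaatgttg
The Bub1b window held CHR matches at -188 and 41 bases from the start and a CCAAT box on the minus strand at -113. The Ttk window held a CHR on the minus strand at 8, with CCAAT boxes at -65 and -28. None of the 3 motifs was in the Mad2l1 window, whose RefSeq start lies upstream of the start of this gene in GENCODE (chromosome 6, 66535390).

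A CHR was found in 10 of the 17 windows of genes that rose (58.8%) and in 7 of the 19 windows of genes that were tested and not called (36.8%). The windows of the 2 untested genes held none. For comparison, 21.7% of 27025 RefSeq genes and 16.5% of the 9972 tested genes with a window held one. In all 10 of these genes that rose, a CHR began within 50 bases of the start, against 3 of 19 genes not called (15.8%: Bub3, Cenpn and Cenpf) and 6.12% of all RefSeq genes. The limit of 50 bases was set after the positions had been seen. The CCAAT box was in 10 of 17 windows of genes that rose (58.8%), in 12 of 19 of genes not called (63.2%) and in 41.1% of all RefSeq genes. Both motifs together were in 7 of 17 (41.2%), 6 of 19 (31.6%) and 8.61% of windows in the same order. An E2F site was in 1 of 17 and 3 of 19, and in 1.8% of all. These are matches of letters and were not tested. The stretches around the CHR nearest the start are given so that the 10 matches and their flanks can be compared. Capitals mark the CHR, which reads TTCAAA where it lies on the minus strand.
Bub1: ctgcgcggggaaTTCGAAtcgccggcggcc
Bub1b: agagacgttaaaTTTGAAactt
Ttk: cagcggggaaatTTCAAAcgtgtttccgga
Cenpa: ggcgggtgatttTTTGAActgctggcgacc
Cenpw: tccggcggccaaTTCAAAtcgaccactcgg
Ndc80: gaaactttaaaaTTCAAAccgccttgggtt
Spc25: ggcggtggagagTTTGAAattgaaagactg
Knl1: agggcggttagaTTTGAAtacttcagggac
Ska3: gcctgcgcaggaTTCAAAtgtgtagcgcgt
Sgo1: gtaacgcagaatTTCGAAtgtggcggcggt
On GRCm38 the stretches lie at chr2:127831828-127831857 (Bub1, minus strand), chr2:118598239-118598260 (Bub1b, plus), chr9:83834684-83834713 (Ttk, plus), chr5:30666890-30666919 (Cenpa, plus) and chr10:30200548-30200577 (Cenpw, minus). The others lie at chr17:71526811-71526840 (Ndc80, minus), chr2:69206172-69206201 (Spc25, minus), chr2:119047138-119047167 (Knl1, plus), chr14:57826160-57826189 (Ska3, minus) and chr17:53689271-53689300 (Sgo1, minus). The first base of the match lay between -25 bases from the start in Cenpw and 41 in Bub1b.

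**Figure D1:**
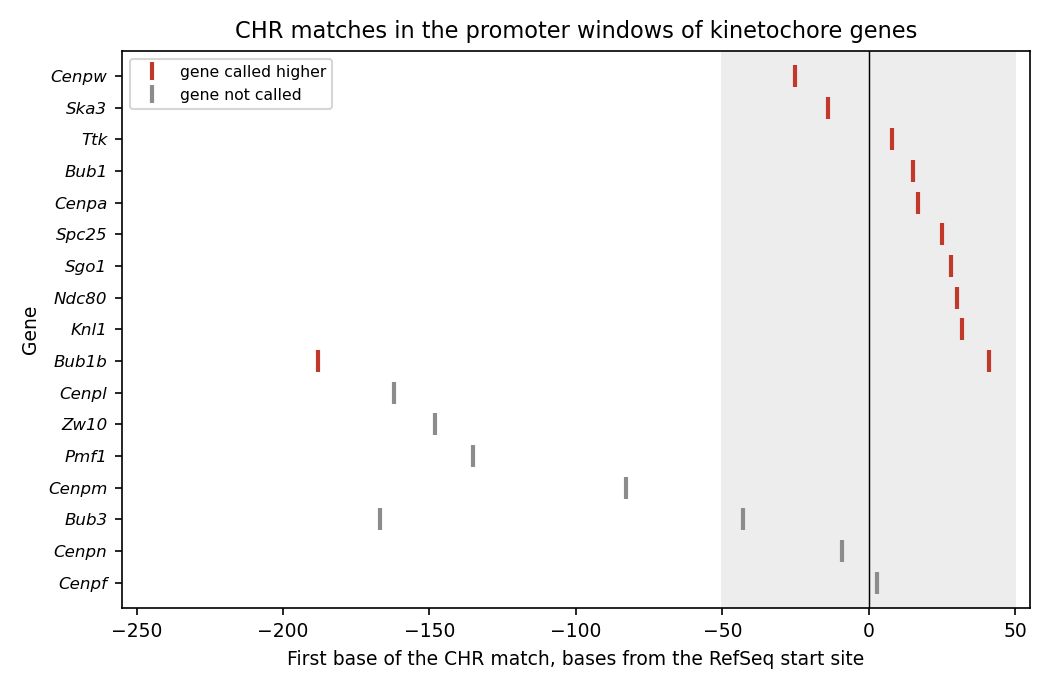
Position of each CHR match in the promoter windows of the kinetochore genes, in bases from the RefSeq start (x axis), with 1 row per gene. Red marks are genes that rose, grey marks genes not called, and the shaded band spans 50 bases on each side of the start. All 10 red genes have a match in the band, as do 3 of the 7 grey ones.

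Total counts per library ran from 5919389 to 25973968, and both paired-end libraries were deeper than every single-end one. Mitochondrially encoded genes took 2.57% and 2.50% of counts in single-end wild type and 4.15% and 4.09% in single-end Atp7b-/- libraries, and, with paired ends, 7.74% in wild type and 8.14% in Atp7b-/-. The share was thus higher in Atp7b-/- libraries within each layout, and its part in the results was not tested. Layout was a term of the test because it is a known difference in sequencing and each layout holds both genotypes. The layout term was called in 52.8% of all genes tested and in 20 of the 40 tested kinetochore genes. Atp7b itself stood at 25.3, 85.2 and 59.7 CPM (TMM-scaled CPM, a count relative to library size) in wild type replicates 1 to 3 and at 19.2, 13.8 and 13.3 CPM in Atp7b-/- replicates 1 to 3, without overlap. RNA from the Y chromosome went against the labelled sex of 2 libraries, both labelled female. Ddx3y stood at 28.0 CPM in wild type replicate 3 and 126 CPM in Atp7b-/- replicate 3. It was 0.340 CPM in wild type replicate 2, the other library labelled female. In the libraries labelled male it was 161 CPM in wild type replicate 1 and 29.5 and 37.7 CPM in Atp7b-/- replicates 1 and 2. Every Atp7b-/- library thus held Ddx3y RNA, and wild type replicate 2 alone held next to none. Xist was 371 CPM in wild type replicate 2, 17.4 in wild type replicate 3 and 0.482 in Atp7b-/- replicate 3. Counts of calls are therefore also given without these libraries. Hepatocyte markers were far above those of other cells, with a summed level of 56710 to 116100 CPM for the 9 markers found.

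In Atp7b-/- livers 20 of the 42 genes rose, none fell, 20 were tested without a call and 2, Cenph and Cenpk, had too few counts to be tested. Over all 12988 genes tested, 1.9% were called higher and 0.585% lower, 2.49% in all (edgeR's quasi-likelihood test, Benjamini-Hochberg adjusted p under 0.05). An unadjusted p under 0.05 was found for 31 of the 40 tested, against 14.5% of all genes. Every gene that rose did so at least 4-fold, and 17 of the 20 at least 8-fold. The 20 genes together summed to 24.1, 13.9 and 20.02 CPM in wild type replicates 1 to 3 and to 171, 159 and 225 CPM in Atp7b-/- replicates 1 to 3. The 20 tested genes without a call summed to 285, 331 and 451 CPM in wild type and 436, 521 and 373 CPM in Atp7b-/- livers, which overlap. On GRCm38 the 20 genes lie on 11 chromosomes, 6 of them on chromosome 2. The median log2 fold change over the 40 tested genes was 2.34, against -0.01 over all genes. A gene expressed in only 1 genotype passes the filter on low counts. Most of the genes that rose passed it only with their Atp7b-/- levels, among them the 8 with 0 counts in a wild type library. The counts of calls, the median, and the counts of ranges and signs that follow therefore describe the tested genes only and are no separate support. The ranges of the genotypes did not overlap in 26 of the 40 tested genes, all higher in Atp7b-/- livers, against 5.23% of all genes tested higher and 3.28% lower. A positive change was found in 38 of the 40, against 49.1% of all genes. In whole tissue, more cells of a type and more RNA per cell cannot be told apart.

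**Figure D2:**
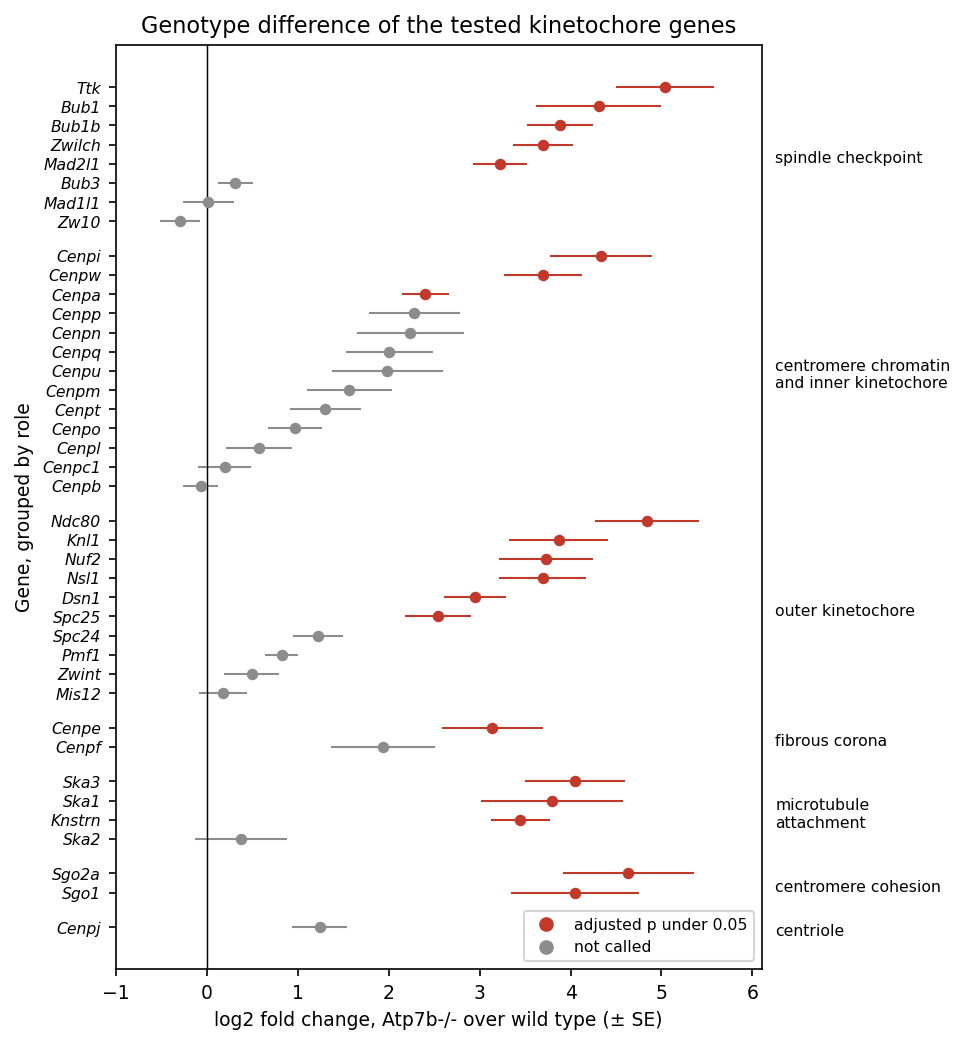
log2 fold change of Atp7b-/- over wild type with its standard error (x axis) for the 40 tested genes, grouped by role (y axis). Red points were called at an adjusted p under 0.05 and run from 2.41 (Cenpa) to 5.04 (Ttk), and grey points were not called and run from -0.29 (Zw10) to 2.28 (Cenpp).

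Among the 8 spindle checkpoint genes, the kinases Ttk and Bub1, the inhibitors Mad2l1 and Bub1b and the RZZ subunit Zwilch rose. Mad2l1 (ENSMUSG00000029910, chromosome 6, 66535390 to 66547220, plus strand), which encodes MAD2, the protein that binds and blocks CDC20, stood at 6.63, 2.97 and 2.41 CPM in wild type replicates 1 to 3 and at 37.0, 20.1 and 52.6 CPM in Atp7b-/- replicates 1 to 3. It rose 9.36-fold (log2 3.23, SE 0.29, adjusted p = 0.000951). Bub1b (ENSMUSG00000040084, chromosome 2, 118598211 to 118641591, plus strand), which encodes BUBR1, a part of the inhibitory complex, was the most even of the 5 relative to its mean, at 0.686, 0.765 and 0.556 CPM against 12.7, 8.0 and 9.99 CPM. Its rise was 14.8-fold (log2 3.88, SE 0.36, adjusted p = 0.001003). For both genes the lowest Atp7b-/- library lay well above the highest wild type library.

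Ttk (ENSMUSG00000038379, chromosome 9, 83834689 to 83872389, plus strand), which encodes MPS1, the kinase that starts the signal, stood at 0.274, 0.170 and 0 CPM in wild type and 6.30, 3.93 and 7.68 CPM in Atp7b-/- livers. That is a 32.8-fold rise, the largest of the 40 tested genes (log2 5.04, SE 0.54, adjusted p = 0.00171), on a wild type base of 8 counts in all. Zwilch (ENSMUSG00000032400, chromosome 9, 64137144 to 64173104, minus strand), which brings MAD1 and dynein to kinetochores, stood at 1.37, 0.425 and 0.556 CPM against 6.12, 7.02 and 17.01 CPM and rose 13.0-fold (log2 3.70, SE 0.33, adjusted p = 0.000951). In both genotypes the paired-end library had its highest level. Bub1, the kinase that recruits other checkpoint proteins, had 3, 1 and 0 counts in wild type, or 0.137, 0.0850 and 0 CPM, and stood at 0.816, 1.12 and 3.34 CPM in Atp7b-/- livers. It rose 19.8-fold (log2 4.31, SE 0.69, adjusted p = 0.0123), and the call was lost without either paired-end library (adjusted p up to 0.241). In such fits the layout term takes up the remaining paired-end library, so the genotype change rests on the single-end ones.

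The other 3 checkpoint genes were not called and overlapped between genotypes. Bub3, the adaptor that docks BUB1 and BUBR1, ranged from 27.1 to 35.0 CPM in wild type and from 31.9 to 46.2 CPM in Atp7b-/- livers (log2 0.31, SE 0.19, adjusted p = 0.513). Mad1l1, the partner of MAD2, ranged from 11.7 to 39.3 and from 14.3 to 33.1 CPM (log2 0.02, SE 0.28, adjusted p = 0.986). Zw10, a subunit of the same RZZ complex as Zwilch, also works in membrane traffic. It stood at 17.9, 16.7 and 14.1 CPM in wild type and 10.4, 13.3 and 16.5 CPM in Atp7b-/- livers, and its log2 change of -0.29 did not pass (SE 0.22, adjusted p = 0.60). Zw10 and Zwilch thus had changes of opposite sign, of which that of Zwilch alone passed the test.

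In centromere chromatin and the inner kinetochore, 3 of the 15 genes rose: Cenpa, Cenpw and Cenpi. Cenpa (ENSMUSG00000029177, chromosome 5, 30666777 to 30674830, plus strand), the histone H3 variant that marks the centromere, had the tightest groups of the 3 relative to its mean, at 2.65, 3.06 and 2.41 CPM in wild type and 15.0, 13.3 and 15.0 CPM in Atp7b-/- livers. From 2.71 ± 0.329 to 14.5 ± 0.981 CPM (mean ± SD, n = 3 each) it rose 5.30-fold, the smallest of the 20 rises (log2 2.41, SE 0.26, adjusted p = 0.00171). Cenpw (ENSMUSG00000075266, chromosome 10, 30194569 to 30200560, minus strand), a histone-fold subunit that pairs with CENP-T, stood at 0.823, 1.28 and 1.48 CPM against 8.63, 21.8 and 14.1 CPM and rose 13.0-fold (log2 3.70, SE 0.43, adjusted p = 0.00267). Cenpi, of the CENP-H-I-K complex, stood at 0.457, 0.0850 and 0 CPM against 2.68, 1.68 and 7.58 CPM. It rose 20.2-fold (log2 4.34, SE 0.56, adjusted p = 0.00454), and the call was lost without either paired-end library (adjusted p up to 0.0875). All 3 genes were higher in each Atp7b-/- library than in each wild type library.

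The other subunits of the inner kinetochore were less separated. Cenpp, Cenpq, Cenpu and Cenpo, 4 subunits of the CENP-O complex, had log2 fold changes of 2.28, 2.01, 1.99 and 0.97, and Cenpn and Cenpt, of the CENP-L-N and CENP-T complexes, 2.24 and 1.30. None of these 6 was called (adjusted p = 0.0515 to 0.156), though their ranges did not overlap between genotypes. Cenpq, for example, stood at 3.11, 2.47 and 0.556 CPM in wild type and 4.49, 4.63 and 22.3 CPM in Atp7b-/- livers, where the paired-end library stood far above the other two. Cenpm (1.57), Cenpl (0.57) and Cenpc1 (0.20), the last the gene for the CENP-C scaffold, overlapped and were not called (adjusted p = 0.155, 0.52 and 0.819). Cenpb, whose protein binds a short motif in centromere DNA, stood at 63.1, 158 and 213 CPM in wild type and 164, 177 and 65.4 CPM in Atp7b-/- livers. Both of its low values were those of the paired-end libraries, and its log2 change was -0.07 (SE 0.19, adjusted p = 0.918). With library totals in place of TMM, or without wild type replicate 3, its sign was positive. Cenph had 6, 1 and 2 counts in wild type and 11, 20 and 23 in Atp7b-/- livers, and Cenpk 18, 2 and 2 against 3, 4 and 25. Exons of Cenpu, Cenpo and Cenpp share 26.7%, 19.0% and 12.3% of their length with Primpol, Adcy3 and Ippk on the opposite strand, so that reads of these pairs may not be told apart. With no filter on low counts the log2 changes of Cenph and Cenpk were 2.37 (SE 0.79, adjusted p = 0.0567) and 0.24 (SE 0.85, adjusted p = 0.954).

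Of the 10 outer kinetochore genes 6 rose, from each of the 3 assemblies that make up the microtubule-binding network. In the NDC80 complex, Ndc80, Nuf2 and Spc25 rose and Spc24 was not called. Ndc80, the subunit that contacts the microtubule, had 2 counts in each wild type library, or 0.0914, 0.170 and 0.371 CPM, and stood at 4.26, 3.65 and 6.34 CPM in Atp7b-/- livers. It rose 28.6-fold (log2 4.84, SE 0.57, adjusted p = 0.00279). Its dimer partner Nuf2 stood at 0.457, 0.0850 and 0.371 CPM against 3.44, 3.23 and 4.93 CPM and rose 13.3-fold (log2 3.73, SE 0.51, adjusted p = 0.00611). Spc25, at the end of the complex that faces the chromosome, stood at 4.48, 1.36 and 4.08 CPM against 16.4, 16.6 and 21.9 CPM and rose 5.84-fold (log2 2.55, SE 0.36, adjusted p = 0.00707). Its dimer partner Spc24 stood at 6.12, 15.0 and 27.6 CPM against 37.1, 49.7 and 18.4 CPM. Spc24 was higher in Atp7b-/- livers within each layout, its ranges overlapped over both, and its log2 change of 1.22 was not called (SE 0.28, adjusted p = 0.0599).

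In the MIS12 complex, which joins the inner to the outer kinetochore, Dsn1 and Nsl1 rose, and Pmf1 and Mis12 were not called. Dsn1 (ENSMUSG00000027635, chromosome 2, 156995265 to 157007154, minus strand) stood at 1.46, 1.02 and 1.85 CPM in wild type and 12.4, 8.42 and 11.3 CPM in Atp7b-/- livers and rose 7.71-fold (log2 2.95, SE 0.34, adjusted p = 0.00251). Nsl1 stood at 0.274, 0.255 and 0.371 CPM against 4.55, 2.95 and 3.79 CPM and rose 12.9-fold (log2 3.69, SE 0.48, adjusted p = 0.0045). Neither gene overlapped between the genotypes. Pmf1 stood at 8.59, 22.2 and 24.3 CPM against 40.7, 38.7 and 16.2 CPM (log2 0.82, SE 0.18, adjusted p = 0.0552). Mis12 stood at 34.4, 9.86 and 8.53 CPM against 11.3, 15.3 and 25.9 CPM (log2 0.18, SE 0.26, adjusted p = 0.818). Knl1, the scaffold on which MPS1 places the checkpoint signal, stood at 0.503, 0.170 and 0 CPM against 2.51, 1.96 and 6.44 CPM. It rose 14.6-fold (log2 3.87, SE 0.54, adjusted p = 0.00677). Its binding partner Zwint, the second most abundant of the 42 genes per exon length in wild type, was not called, at 36.4 to 80.6 CPM against 62.0 to 102 CPM (log2 0.49, SE 0.30, adjusted p = 0.506). Without wild type replicate 1 or Atp7b-/- replicate 3 the calls of Nuf2, Spc25, Nsl1 and Knl1 were lost, with adjusted p up to 0.108 for Knl1, and without Atp7b-/- replicate 3 that of Ndc80 (adjusted p = 0.0532).

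The genes of the corona and of microtubule attachment rose in 4 of 6 cases. Cenpe, a kinesin that carries chromosomes to the middle of the spindle, stood at 0.731, 0.255 and 1.48 CPM in wild type and 3.96, 6.88 and 8.30 CPM in Atp7b-/- livers. It rose 8.83-fold (log2 3.14, SE 0.56, adjusted p = 0.0204). Leaving out either paired-end library or Atp7b-/- replicate 2 ended the call (adjusted p up to 0.189). Cenpf, the other corona gene, stood at 1.42, 0.0850 and 0.556 CPM against 1.05, 1.54 and 4.55 CPM and overlapped (log2 1.94, SE 0.57, adjusted p = 0.14).

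Knstrn (ENSMUSG00000027331, chromosome 2, 118814003 to 118853957, plus strand), the partner of astrin on attached kinetochores, stood at 1.74, 1.53 and 3.71 CPM in wild type and 25.3, 30.9 and 17.5 CPM in Atp7b-/- livers and rose 10.9-fold (log2 3.45, SE 0.33, adjusted p = 0.00102). Of the 3 subunits of the SKA complex, which tracks microtubule ends, Ska3 and Ska1 rose and Ska2 did not pass the test. Ska3 (ENSMUSG00000021965, chromosome 14, 57806561 to 57826185, minus strand) stood at 0.686, 0.170 and 0 CPM against 5.01, 4.49 and 6.61 CPM and rose 16.6-fold (log2 4.05, SE 0.55, adjusted p = 0.00596). Ska1 had 4 counts in all wild type libraries, or 0.0914, 0 and 0.371 CPM, against 1.81, 1.68 and 1.45 CPM, a 13.9-fold rise (log2 3.79, SE 0.78, adjusted p = 0.0406). That call was the least stable of the 20, lost in 5 of the 6 fits that left out 1 library, all but that without wild type replicate 3 (adjusted p up to 0.226). Ska2 stood at 2.33, 1.36 and 0.556 CPM against 1.46, 0.561 and 3.96 CPM, with overlap (log2 0.38, SE 0.51, adjusted p = 0.80).

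Both shugoshins, which protect centromere cohesin until anaphase, rose from near 0. Sgo2a had 4, 0 and 0 counts in wild type and 18, 6 and 107 in Atp7b-/- livers, or 0.183, 0 and 0 CPM against 1.05, 0.842 and 3.69 CPM. It rose 24.9-fold (log2 4.64, SE 0.72, adjusted p = 0.0104). Sgo1 had 9, 0 and 0 counts against 23, 5 and 147, or 0.411, 0 and 0 CPM against 1.34, 0.702 and 5.06 CPM, and rose 16.6-fold (log2 4.05, SE 0.70, adjusted p = 0.0181). The call of Sgo2a was lost without either paired-end library (adjusted p up to 0.194) and that of Sgo1 without wild type replicate 1 (adjusted p = 0.133). Without Atp7b-/- replicate 1 or replicate 3, Sgo1 had too few counts to be tested. Exons of Sgo2a share 35.0% of their length with Kctd18 on the opposite strand, and the strand setting of the counting is not given. For Kctd18 the log2 change was 0.43 (adjusted p = 0.554). Sgo2b, the other shugoshin 2 gene, had 0 counts in every library. How reads that match more than 1 gene were counted is not given, so the 0 counts cannot show whether Sgo2b was silent. Cenpj, which sets centriole length and is no kinetochore protein, stood at 4.80, 1.87 and 1.85 CPM against 4.08, 5.61 and 10.1 CPM and was not called (log2 1.24, SE 0.30, adjusted p = 0.0792).

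**Figure D3:**
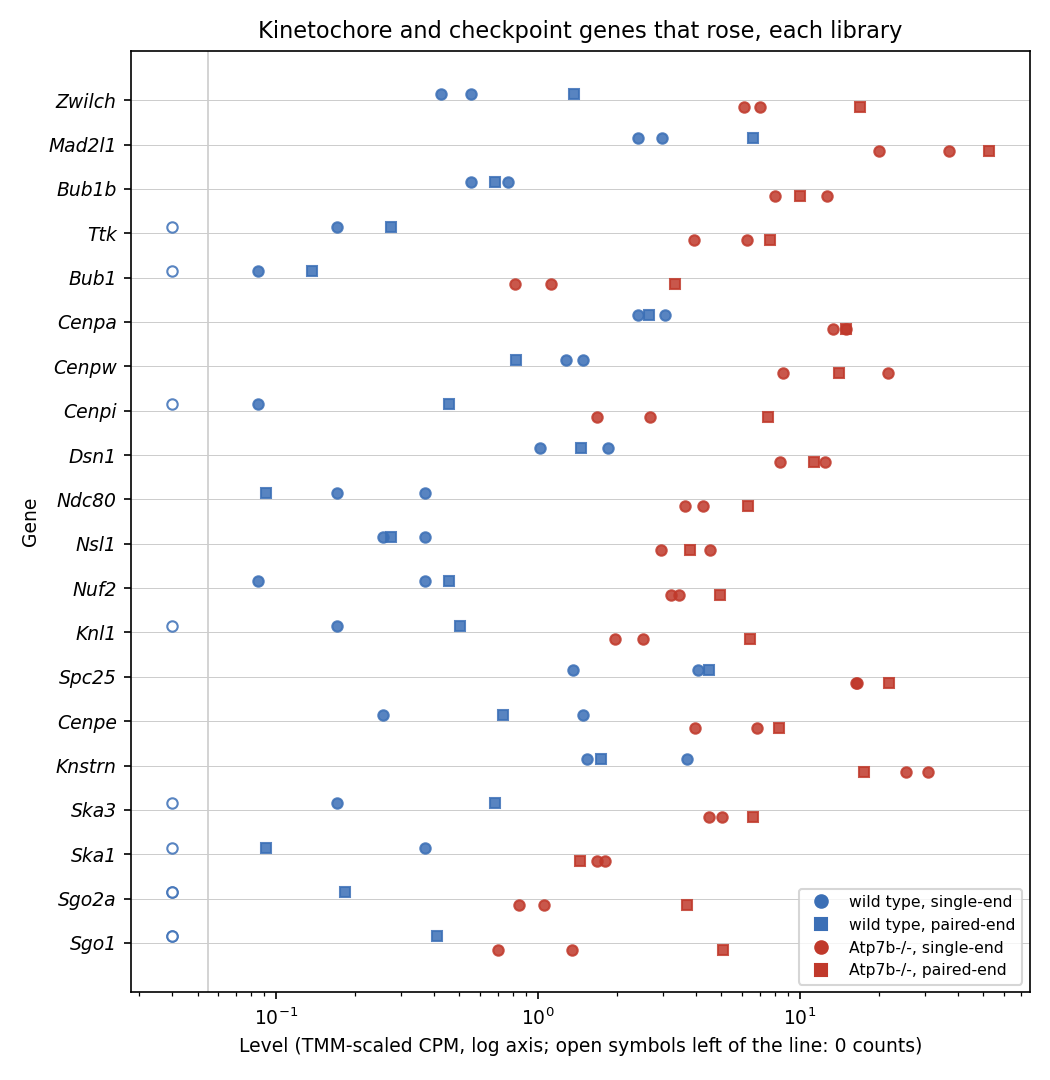
Level of each of the 20 genes that rose in each library, as TMM-scaled CPM on a log axis (x axis), by gene (y axis). Blue symbols are wild type, red Atp7b-/-, squares paired-end and circles single-end, and open symbols mark 0 counts. In every gene the 3 red symbols lie to the right of the 3 blue ones, and 8 genes have an open wild type symbol.

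Per kilobase of exon, so that genes can be compared with one another, subunits of the NDC80 and MIS12 complexes stood at very different levels in wild type liver and closer together in Atp7b-/- liver. This did not hold for the 4 subunits of the CENP-O complex, at 0.106 (Cenpu) to 0.785 CPM per kb (Cenpq) in wild type and 0.431 to 4.02 in Atp7b-/- livers. In the NDC80 complex the mean level was 0.0325 CPM per kb for Ndc80, 0.0480 for Nuf2, 1.04 for Spc25 and 6.31 for Spc24 in wild type. It was 0.731, 0.609, 5.74 and 13.6 CPM per kb in Atp7b-/- livers. In the MIS12 complex Nsl1 stood at 0.0566, Dsn1 at 0.431, Pmf1 at 4.52 and Mis12 at 5.86 CPM per kb in wild type, and at 0.709, 3.19, 7.85 and 5.83 CPM per kb in Atp7b-/- livers. In the checkpoint, Bub1 (0.0170), Ttk (0.0301), Bub1b (0.157), Zwilch (0.183) and Mad2l1 (0.477) were below Zw10 (4.23), Bub3 (4.35) and Mad1l1 (6.59 CPM per kb) in wild type. In Atp7b-/- livers Mad2l1 stood at 4.36 CPM per kb, between Zw10 at 3.51 and Bub3 at 5.42. Over the 42 genes the wild type means ran from 0.00870 CPM per kb in Sgo2a to 29.7 in Cenpb.

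The 20 genes that rose had wild type means of 0.00870 to 1.04 CPM per kb, and the 20 not called of 0.0445 (Cenpf) to 29.7 (Cenpb). Across the 40 tested genes, Spearman's rho between the wild type level per kb and the log2 fold change was -0.856. This is a description, since both quantities contain the wild type counts and genes are not independent samples. The genes that rose had 4 (Bub1) to 193 (Mad2l1) wild type counts in all, so the size of the largest rises rests on few counts. Pooled over libraries, wild type livers gave 4 counts of Bub1 and Atp7b-/- livers 119, which is 21.8 times the level (exact 95% counting interval 8.29 to 81.3). For Bub1b, with 565 counts against 27, the ratio was 15.3 (10.4 to 23.5). These intervals cover counting error only.

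**Figure D4:**
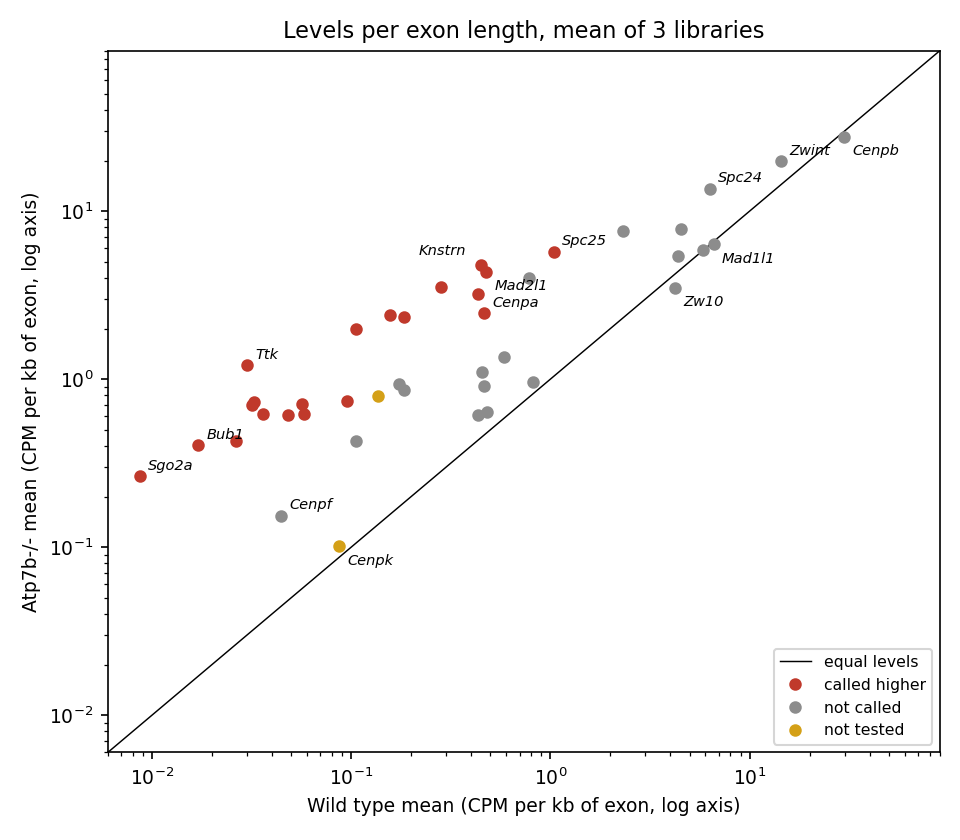
Mean level of each of the 42 genes in Atp7b-/- livers (y axis) against wild type livers (x axis), in CPM per kb of exon on log axes, 3 libraries each. Red genes were called higher, grey ones not called and yellow ones not tested, and the line marks equal levels. In wild type the red genes ran from 0.00870 (Sgo2a) to 1.04 CPM per kb (Spc25) and the grey ones from 0.0445 (Cenpf) to 29.7 (Cenpb). These ranges overlap, and Cenpb lies next to the line.

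Taken by layout, 36 of the 40 tested genes were higher in Atp7b-/- livers in both sets of libraries, against 28.9% of all genes. All 20 genes that rose were among them, but they were called from these same libraries, so their agreement is no separate support. Zw10 was lower in both sets. In the single-end libraries the ratio of pooled counts was 48.1 for Ttk (95% counting interval 13.1 to 401, 136 against 2 counts), and in the paired-end ones 28.0 (12.7 to 77.1, 223 against 6 counts). Cenpa was 5.09-fold (3.77 to 7.01) and 5.66-fold higher (4.30 to 7.58), and Bub1b 16.2-fold (9.12 to 31.7) and 14.6-fold higher (8.69 to 26.4). Ska3 was 41.7-fold higher (11.3 to 348, 118 against 2 counts) in single-end and 9.65-fold (5.70 to 17.6) in paired-end libraries, and Ndc80 17.5-fold (6.62 to 65.5) and 69.3-fold (18.9 to 577, 184 against 2 counts). Sgo1 had 28 against 0 counts in single-end libraries, at least 6.60-fold higher against a floor of 3 counts over the group, and Sgo2a 24 against 0, at least 5.65-fold higher. In the paired-end libraries they were 12.3-fold (6.31 to 27.5) and 20.2-fold (7.65 to 75.3) higher.

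The difference between layouts was itself tested for each gene. None of the 40 was called (0.0154% of all genes were) and none had an unadjusted p under 0.05 (4.57% of all genes did), with the smallest at 0.0869 for Mis12 and 0.107 for Ska3. DESeq2 also called none of the 40, against 0.5% of all genes. Within a layout the labelled sex follows the genotype in opposite directions, so a difference between layouts and one between labelled sexes cannot be told apart, and the test has 2 residual degrees of freedom. Mis12 was 1.32-fold higher in Atp7b-/- livers in single-end (1.09 to 1.61) and stood at a ratio of 0.754 in paired-end libraries (0.680 to 0.835), counting error only.

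**Figure D5:**
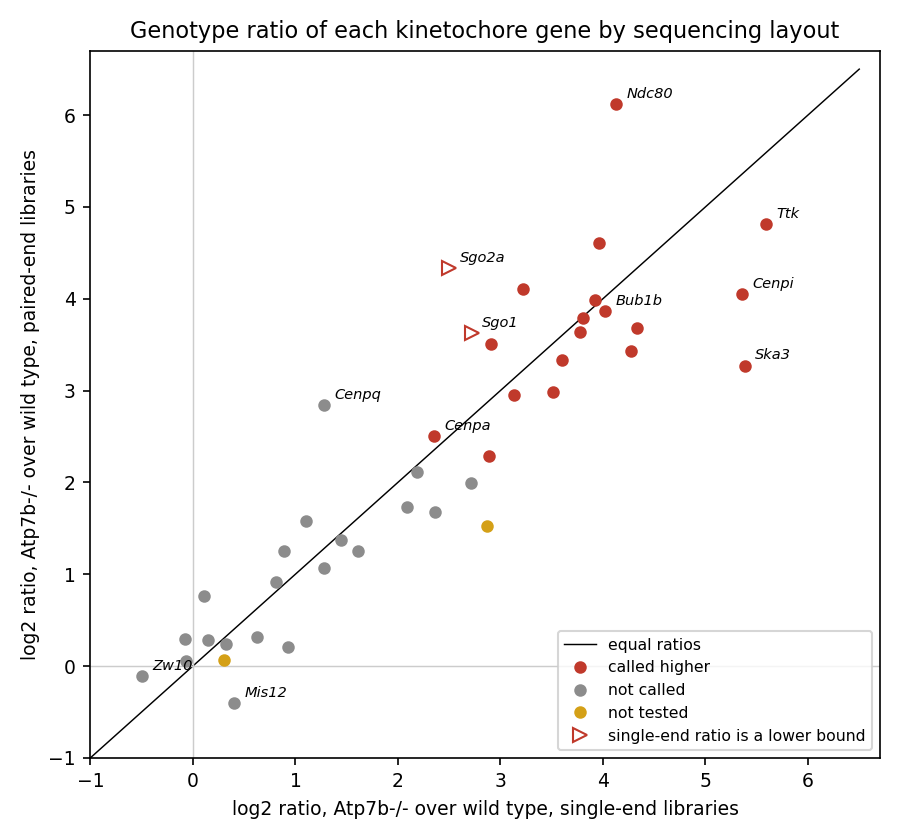
log2 ratio of Atp7b-/- over wild type pooled counts in the paired-end libraries (y axis) against the single-end libraries (x axis) for the 42 genes. Red genes were called higher, grey ones not called and yellow ones not tested, open triangles are lower bounds in the single-end libraries, and the line marks equal ratios. All 20 called genes lie above 2 on both axes, and Zw10 is below 0 on both.

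Fewer genes were called without a paired-end library. Without wild type replicate 1, 10 kinetochore genes were called higher (0.837% of all genes) and without the paired-end Atp7b-/- library, replicate 3, whose labelled sex did not match its Y-linked RNA, 9 (0.742%). Without wild type replicate 3, the other such library, 21 were called (1.53%). Without wild type replicate 2, which held next to no Ddx3y, 19 of the 20 kept the call, as did 247 of the 323 genes called over all. The part of sex was not tested. In the 4 single-end libraries alone 10 of the 20 were called (0.844% of all genes) and 3, Bub1, Sgo1 and Sgo2a, were not tested. The 9 genes that kept the call whichever library was left out were Zwilch, Mad2l1, Bub1b, Ttk, Cenpa, Cenpw, Dsn1, Knstrn and Ska3. Their calls with a paired-end library left out and in the single-end fit are not separate checks. Over all genes, 107 to 247 of the 323 calls were kept when 1 library was left out. How many of the 323 were kept in every such fit is not given here. With no layout term, or with labelled sex in its place, no gene of any kind was called by edgeR, and 26 and 22 of the 40 had an unadjusted p under 0.05, as had 545 and 381 of all genes. With layout as a term, DESeq2 and limma-voom each called all 20, DESeq2 another 7 (Cenpj, Cenpp, Cenpq, Cenpn, Cenpm, Pmf1 and Spc24) and limma-voom another 4 (Cenpp, Cenpq, Pmf1 and Spc24), with 3.6% and 2.23% of all genes called higher. The count was 28 with no filter on low counts (2.67%), 24 with library totals in place of TMM (2.96%) and 14 with a minimum count of 30 (1.79%), where 6 of the 20 were no longer tested and none of the others lost its call.

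A further 39 genes have proteins that build, load or work with the kinetochore. Of these 16 rose, none fell, 21 were not called and 2 (Kntc1 and Cenps) were not tested. Over all genes tested, 1.9% rose and 0.585% fell. An unadjusted p under 0.05 (edgeR) was found for 23 of the 37 tested, against 14.5% of all genes. The median log2 fold change of the 37 was 0.62. The 4 with the smallest p were Cdc20, the target of the checkpoint, which rose 25.4-fold, Spag5, which encodes astrin and rose 33.8-fold, the securin gene Pttg1 with 9.98-fold (each adjusted p = 0.000951) and Birc5, which encodes survivin and rose 17.1-fold (adjusted p = 0.00102). Cdc20 stood at 0.594, 1.28 and 2.78 CPM in wild type and 37.1, 32.1 and 28.4 CPM in Atp7b-/- livers. The next genes were singled out after their values were seen. Mis18a, Oip5 and Hjurp, which help to load CENP-A onto centromeres, rose. Hjurp, the chaperone of CENP-A, was already at 73.7, 70.3 and 70.6 CPM in wild type and reached 189, 197 and 169 CPM (2.58-fold, log2 1.37, SE 0.18, adjusted p = 0.00495). Leaving out Atp7b-/- replicate 3 ended the calls of Mis18a and Oip5 (adjusted p up to 0.0698). In the chromosomal passenger complex Aurkb, Birc5 and Cdca8 rose. The call of Birc5 was kept whichever library was left out, that of Cdca8 was lost without either paired-end library (adjusted p up to 0.0927), and that of Aurkb was kept in 1 of 6 such fits (adjusted p up to 0.20). Incenp, at a log2 change of 1.39, did not pass (adjusted p = 0.0702). Espl1, the separase gene, rose 13.2-fold (adjusted p = 0.00144). None of the 8 genes for cohesin and its regulators Wapl, Pds5a and Pds5b was called by edgeR, DESeq2 or limma-voom. An unadjusted p under 0.05 in edgeR was found for 2 of the 8, against 14.5% of all genes. Over the 8 genes, log2 fold changes ran from -0.46 (Smc1a) to 0.46 (Rad21).

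Beside the kinetochore, 20 other proliferation genes and 20 DNA replication genes were read in the same fit. Of the proliferation genes 7 rose, 1 fell, 9 were not called and 3 were not tested, with a median log2 fold change of 1.78. Over all genes tested, 1.9% rose and 0.585% fell. Ect2 rose 16.8-fold (adjusted p = 0.00102), and Racgap1, Tpx2 and Cdk1, the mitotic kinase, rose 10.1-fold, 14.3-fold and 16.4-fold (each adjusted p = 0.00139). E2f8, a repressor of the E2F family, fell from 7.59, 12.1 and 13.7 CPM to 2.62, 3.09 and 2.82 CPM (log2 -1.91, SE 0.29, adjusted p = 0.00955). Mki67, a common marker of cycling cells, overlapped at 1.67 to 3.61 CPM in wild type and 1.11 to 7.02 CPM in Atp7b-/- livers (log2 0.84, SE 0.61, adjusted p = 0.595). Of the 20 DNA replication genes none was called by edgeR, DESeq2 or limma-voom and 2 were not tested. An unadjusted p under 0.05 in edgeR was found for 3 of the 18 tested, against 14.5% of all genes. The median log2 fold change of the 18 was -0.17. The 4 with the smallest p were Rrm1 (log2 0.55, adjusted p = 0.289), Mcm4 (-0.93, 0.296), Cdc45 (0.97, 0.318) and Gins1 (-0.79, 0.354).

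Markers of other cells were read in the same libraries. The summed level of the 9 hepatocyte markers was lower in Atp7b-/- livers without overlap (56710 to 75640 CPM against 82680 to 116100 CPM). This gap rests on the TMM factors (0.912 to 0.961 in wild type, 1.03 to 1.12 in Atp7b-/-), and relative to library totals the sums overlap. Alb, the largest part of the sum, overlapped as well (27650 to 49860 against 42890 to 77710 CPM). None of the 9 was called by edgeR or DESeq2, and 1 had an unadjusted p under 0.05 in edgeR (14.5% of all genes did). The sum of the 8 biliary markers was higher without overlap (220 to 253 against 113 to 137 CPM). Of these Cdh1 rose, from 76.1, 74.2 and 70.8 CPM to 187, 184 and 123 CPM (log2 1.13, adjusted p = 0.0219), a call that was lost in 4 of the 6 fits that left out 1 library (adjusted p up to 0.0784). Cdh1 was the largest part of the biliary sum in every library, and the sums of the other biliary markers overlapped between the genotypes. Of the 7 biliary markers tested 5 had a positive change (median log2 0.74) and 3 had ranges above those of wild type. An unadjusted p under 0.05 in edgeR was found for 3, and DESeq2 called 2. Over all 12988 genes tested, 49.1% had a positive change, 5.23% such ranges and 14.5% such a p, and DESeq2 called 770. The defining keratins Krt19 and Krt7 had log2 fold changes of -0.0021 and -0.30 and Cftr was near 0. The part of the hepatocyte and biliary markers in the result was not tested. Sums of the other lists overlapped between the genotypes, at 82.8 to 259 against 246 to 372 CPM for 11 erythroid markers, 0.425 to 2.74 against 1.12 to 2.03 CPM for 11 granulocyte precursor markers and 5.19 to 12.3 against 5.48 to 8.20 CPM for 10 lymphocyte markers. The erythroid overlap rested on wild type replicate 1, at 259 CPM. The whole granulocyte precursor list was too low to be tested, and only 8 erythroid and 2 lymphocyte markers were tested. Kupffer cell (241 to 542 against 262 to 452 CPM), endothelial (255 to 877 against 239 to 636 CPM) and stellate cell markers (300 to 675 against 346 to 445 CPM) overlapped too, with no gene called in any of these lists.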

How the data were processed

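RNA from 6 mouse liver libraries was counted per gene. The file the authors deposited holds raw counts for Ensembl identifiers, not normalized. STAR 2.4, featureCounts, edgeR 3.8 and build GRCm38 are named per the submitters' processing notes. Strand setting, read pair counting and annotation release: not given in the sources used here, which leaves overlapping genes uncertain. GENCODE M21 named 40340 of 41388 identifiers. The 42 genes, their roles and the other lists were chosen with earlier results of these data known.

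The count test was edgeR 4.0.16 (R 4.3.3): TMM, edgeR's expression filter by genotype with a minimum count of 10, layout and genotype as terms, a robust quasi-likelihood fit and Benjamini-Hochberg adjustment over 12988 genes. A gene was called, and is said to have risen or fallen, where the adjusted p was under 0.05. The standard error is the size of the log2 change over the square root of F. Fold changes were tested on simulated counts. Levels are TMM-scaled CPM, as mean ± SD of 3 libraries, and per kb of union exon length. TMM factors lay between 0.9124 and 1.122. Replicate numbers follow deposition order and pair nothing.

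Every gene of the 42 is given by role. Library values are given for each gene that rose, for the smallest p of a role with no call and for changes of opposite sign within a role. Other lists are given by counts and their 4 smallest p. Alternatives were other scalings, filters, DESeq2 1.42.0, limma-voom 3.58.1, other model terms and leaving out libraries. Proteins were not analysed here.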

Additional observations from a re-analysis of the deposited data

How the results depend on the processing

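The number of kinetochore genes called higher (20) became 10 in the single-end libraries alone, 0 with genotype alone and 0 when labelled sex replaced layout, and ran from 9 to 21 when 1 library was left out. The number of partner genes called higher (16) became 7, 0 and 0 and ran from 7 to 16, and that called lower (0) became 2 with no filter on low counts and 2 with DESeq2. Over all genes, 323 calls became 1116 with no filter, 770 with DESeq2, 126 in the single-end libraries and 0 in both fits without layout, and ran from 119 to 323. For the 2 fits with no call, edgeR had 545 and 381 genes at an unadjusted p under 0.05. Fits that left out a paired-end library took their genotype change from the single-end ones, and are no check apart from that comparison. Library totals in place of TMM moved the median log2 fold change of all genes from -0.01 to 0.19. Signs reversed only among genes that were not called. Mad1l1 (0.018) went to -0.002 with DESeq2 size factors, -0.003 with DESeq2, -0.046 with no layout term and -0.116 in the single-end libraries, and ran from -0.164 to 0.341 when 1 library was left out. Cenpb (-0.066) went to 0.135 with library totals and 0.082 without wild type replicate 3 (-0.159 to 0.082 when 1 library was left out). Mis12 (0.179) went to -0.014 with no layout term and -0.010 without Atp7b-/- replicate 2 (-0.010 to 0.528 when 1 library was left out). The cause was not tested. No paired analysis was possible because the labels give no replicate numbers shared by the genotypes. Few wild type counts limit the precision of the largest rises.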
